A study of Rattus norvegicus with 4 samples.

Results

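Genes of cholesterol synthesis and of its control by the sterol regulatory element binding proteins (SREBPs) are described here in rat alveolar macrophages of the NR8383 line. The 31 members were taken by name: genes of the sterol pathway from acetyl-CoA to cholesterol, genes that control SREBPs, and genes of fatty acid synthesis and desaturation, kept where a probe's accession on the array matched the gene's symbol. All 31 were found among the 16581 genes that could be named. This line was derived from a lung lavage of a normal rat, and its cells grow partly attached and partly floating. For 4 h they were given titanium dioxide (TiO2) particles, NM105 or P25, which hold both anatase and rutile crystals, at 3 cm2 of particle surface per cm2 of culture. The series compared exposed with untreated cells in 4 biological replicates each. The 4 exposed cultures (replicates 1 to 4), all of 1 line after 20 passages and in medium with 15% serum, form the single group described here. The untreated cultures were not analysed here, so none of the values is a response to the particles.

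Cholesterol is built from acetyl-CoA through mevalonate, isoprenoid units and squalene, and the ring made from squalene is then trimmed to cholesterol by enzymes of the endoplasmic reticulum. When membrane cholesterol is low, the escort protein SCAP carries SREBPs to the Golgi, where proteases release the part that enters the nucleus and switches on these genes. INSIG proteins hold SCAP back when sterol is plentiful. SREBP-2 acts mainly on the cholesterol pathway and SREBP-1c mainly on fatty acid synthesis, and macrophages balance synthesis against the cholesterol they take up with particles, lipoproteins and dead cells.

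Each culture's RNA, carrying the dye Cy3, was read on an array of its own, and the arrays shared 1 slide. Levels are log2 intensities relative to the array's own reference, which is the 75th percentile of signal over probes well above background on all 4 arrays. From replicate 1 to 4 that reference was 1431, 585, 767 and 831 intensity units. Levels serve to compare arrays for 1 gene and not genes with each other, because probes differ in brightness. A gene was called detected on an array when a probe of it was well above background by the scanner software's flag. Of 10 macrophage markers, 9 were detected on all 4 arrays, and Mertk was detected on none. None of 6 epithelial markers, 3 T cell markers or 3 hepatocyte markers was detected on any array, nor were 3 of 4 fibroblast markers, with Col1a1 detected on 1 array. Of 3 endothelial markers, Cdh5 was detected on all 4 arrays.

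Every member of the sterol pathway was detected, and most members of fatty acid synthesis were not. All 18 members that encode enzymes of sterol synthesis, from Acat2 to Dhcr7, were well above background on all 4 arrays. Of 6 members of SREBP control and sterol transport, 5 were detected on all 4 arrays and Insig2 on 1. Of 7 members of fatty acid synthesis and desaturation, only Acly was detected on all 4 arrays, Acaca was detected on 1, and Fasn, Scd, Elovl6, Fads1 and Fads2 on none. Together 24 of 31 members (77.4%) were detected on all 4 arrays, against 35.2% of all named genes, and 5 were detected on none, against 53.7%. The 24 were a subset picked by signal, and statements below on spread concern these genes and not all members. When detection meant exceeding the 99th percentile of negative control spots, the count gained Insig2 and Acaca, and 44.4% of all named genes were detected. Asking that every probe of a gene be detected left 20 members, without Acat2, Idi1, Hsd17b7 and Stard4, and 29.9% of all named genes. In RNA of a whole culture, fewer cells that express a gene and less RNA in each cell cannot be told apart.

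**Figure D1:**
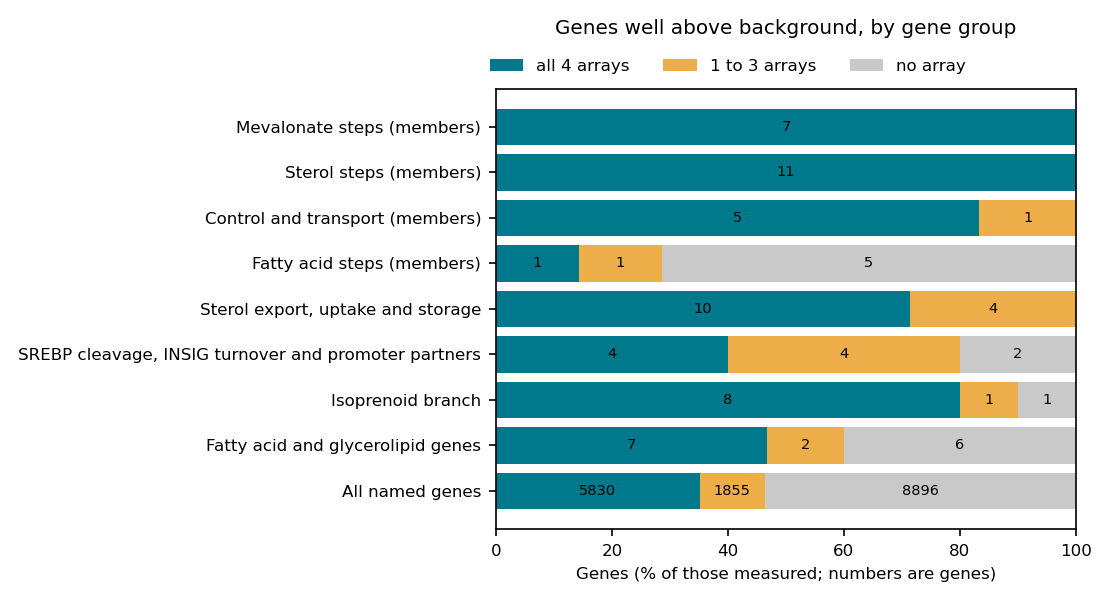
Share of measured genes (x axis, %) detected on all 4 arrays, on 1 to 3 arrays or on no array, for the 4 groups of members, 4 lists of related genes and all named genes; numbers in the bars count genes. All 18 genes of the mevalonate and sterol steps were detected on all 4 arrays, against 1 of 7 of the fatty acid steps and 35.2% of all named genes.

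SREBPs act with a partner, the CCAAT-binding factor NF-Y, so the promoters were searched for 3 short motifs to show what the members share in sequence. RefSeq promoters of the GRCr8 build, 250 bases before to 50 after an annotated start, were found for 24 of the 31 members; there was no entry for Pmvk, Fdft1, Sqle, Stard4, Acaca, Fasn and Elovl6. The NF-Y box CCAAT, on either strand, lay in the promoters of 18 of 24 members (75%), against 37.5% of 33469 promoters of the same length. Of these 18, 11 held at least 2 copies in 1 promoter. Of 38 matches, 36 lay within 200 bases before the start, and 29 read ATTGG on the gene's strand, the inverted form. Copies, positions and strands were not counted over all promoters, so these counts cannot be called particular to the members. TCACNCCA, a part of the sterol regulatory element, lay in the promoters of 2 members, Msmo1 and Srebf2, against 3.89% of all promoters. The E-box CACGTG lay in 3, Sc5d, Insig1 and Scap, against 6.42% of all. Members were counted by gene, and the shares over all by promoter, whether or not the gene was detected. None of these motifs overlapped another in the printed sequences. A match is a run of letters and not a site shown to be bound, and no binding was measured here.

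The 250 bases before the start of Msmo1, at chr16:29746863-29747112 on the plus strand, and of Srebf2, at chr7:115543057-115543306 on the plus strand (GRCr8), are shown because both hold the sterol element motif together with an NF-Y box. Capitals mark TCACNCCA and CCAAT or ATTGG, and the strands read 5′ to 3′ toward the gene.
Msmo1: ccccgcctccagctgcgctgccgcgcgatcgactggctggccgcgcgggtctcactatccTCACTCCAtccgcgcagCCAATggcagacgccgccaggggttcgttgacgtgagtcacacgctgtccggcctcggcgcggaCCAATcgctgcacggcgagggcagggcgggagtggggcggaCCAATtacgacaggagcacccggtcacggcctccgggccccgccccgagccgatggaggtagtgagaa
Srebf2: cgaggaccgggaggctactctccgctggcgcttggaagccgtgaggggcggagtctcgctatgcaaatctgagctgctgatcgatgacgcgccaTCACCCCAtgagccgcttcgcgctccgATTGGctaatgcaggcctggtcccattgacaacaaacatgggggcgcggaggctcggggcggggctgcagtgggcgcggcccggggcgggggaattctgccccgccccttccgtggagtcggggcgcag
In Msmo1 the sterol element motif begins 190 bases before the start and is followed by CCAAT at 173, 109 and 68 bases. In Srebf2 it begins 156 bases before the start and is followed by ATTGG at 129 bases.

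**Figure D2:**
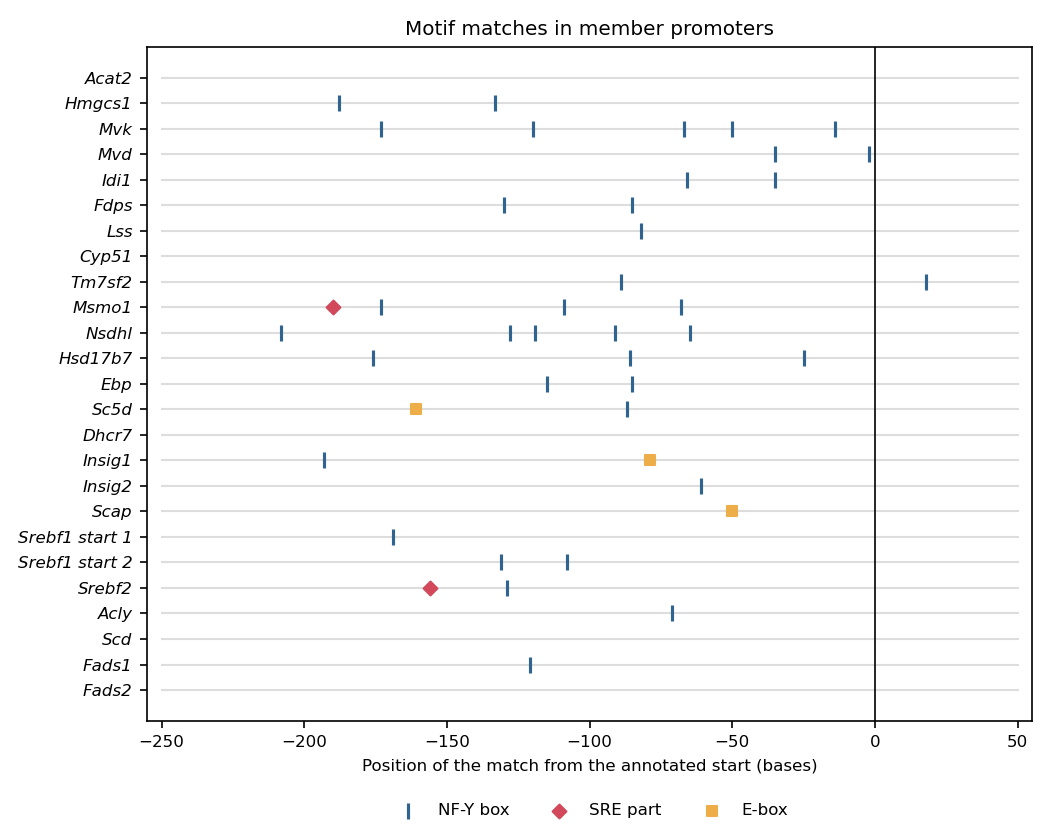
Positions of the 3 motifs (x axis, bases from the annotated start, which is the vertical line) in the promoters of the 24 members found in RefSeq, with 2 starts for Srebf1. Bars mark the NF-Y box, diamonds the sterol element part and squares the E-box; most NF-Y matches lie within 200 bases before the start, and Msmo1 and Srebf2 carry the diamonds.

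The early steps lead from acetyl-CoA through mevalonate to farnesyl diphosphate. Hmgcs1, which makes HMG-CoA, the precursor of mevalonate, was at -0.50, -1.54, -1.12 and -0.62 on replicates 1 to 4 (mean -0.94 ± 0.48, SD, n = 4). It was highest on replicate 1 and lowest on replicate 2, a difference of 2.06-fold. Idi1, the isomerase that makes the reactive isoprenoid unit, was at -2.79, -4.06, -3.56 and -3.40 on replicates 1 to 4 (mean -3.45 ± 0.53, n = 4), a difference of 2.42-fold between replicates 1 and 2. A dimmer probe of Idi1 gave the same extremes, with -4.09 on replicate 1 and -5.44 on replicate 2, where it was not detected. Both genes thus had their lowest level on replicate 2, and Idi1 had the highest SD of the 24 detected members.

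The other early enzymes differed less. Fdps, the farnesyl diphosphate synthase, was at 0.84, 0.89, 0.90 and 0.85 on replicates 1 to 4, with an SD of 0.030, the lowest among the detected members. Acat2, which joins acetyl-CoA units, was at -0.97, -0.96, -0.66 and -0.54, so it was lower on replicates 1 and 2 than on replicates 3 and 4. A second probe of Acat2, printed at 2 spots, had the same order, at -2.27, -2.26, -1.92 and -1.90, while its other 2 probes, detected on 2 arrays and on 1, were lowest on replicate 4. Mevalonate kinase, Mvk, was at -2.77, -2.32, -2.46 and -2.29, lowest on replicate 1. Phosphomevalonate kinase, Pmvk, was at -1.26, -0.96, -1.23 and -1.17, and the decarboxylase gene Mvd was at 1.10, 1.32, 0.78 and 0.92, both highest on replicate 2. Of the 7 genes of these steps, 4 were lowest on replicate 1, 2 on replicate 2 and 1 on replicate 3. Over all detected genes these shares were 25.0%, 32.2% and 22.2%. Fdps was among the 4, but its arrays differed by only 0.062 on the log2 scale, so its lowest array carries little weight. The 7 genes did not all share an array on which they were low.

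Squalene and the first sterols are made next. Fdft1, the squalene synthase, was at -1.42, -1.31, -0.77 and -1.87 on replicates 1 to 4 (mean -1.34 ± 0.45, n = 4). It was highest on replicate 3 and lowest on replicate 4, by 2.14-fold. Sqle, the squalene epoxidase and a rate-limiting enzyme of the pathway, was at -1.25, -1.95, -1.74 and -1.18 (mean -1.53 ± 0.37, n = 4). Replicates 1 and 4 were high and replicates 2 and 3 low. Lss, the cyclase that forms lanosterol, was at -2.28, -2.13, -2.36 and -2.20, an SD of 0.098, and its second probe, at -2.10, -2.42, -2.45 and -2.34, was highest on replicate 1 where the first was highest on replicate 2.

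Lanosterol is then demethylated and its double bonds are moved and reduced. Cyp51, the lanosterol demethylase, was at -0.08, -0.59, -0.29 and -0.27 on replicates 1 to 4. Its second probe, at -1.48, -1.52, -1.14 and -1.09, was also lowest on replicate 2 but highest on replicate 4. Msmo1, the methylsterol monooxygenase whose promoter is printed above, was at 0.98, 0.15, 0.31 and 0.88 (mean 0.58 ± 0.41, n = 4), high on replicates 1 and 4 and low on replicates 2 and 3, as Sqle was. Hsd17b7, a keto-sterol reductase, was at -4.12, -4.64, -4.15 and -3.87, and Sc5d, the sterol desaturase, was at -4.39, -4.82, -4.51 and -4.33. Both were lowest on replicate 2. Nsdhl, a dehydrogenase of the demethylation steps, had an SD of 0.039 and lay between -3.72 and -3.64. Tm7sf2, a sterol reductase, ran from -1.24 on replicate 3 to -0.97 on replicate 2. Ebp, the sterol isomerase, ran from -0.08 on replicate 4 to 0.28 on replicate 1. Dhcr7, the last reductase of the branch, ran from -1.56 on replicate 3 to -0.98 on replicate 2. Of the 11 genes of the sterol steps, replicate 2 was the lowest array for 5, replicate 3 for 3, replicate 4 for 2 and replicate 1 for Nsdhl. Over all detected genes the shares lowest on replicates 2, 3, 4 and 1 were 32.2%, 22.2%, 20.6% and 25.0%.

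**Figure D3:**
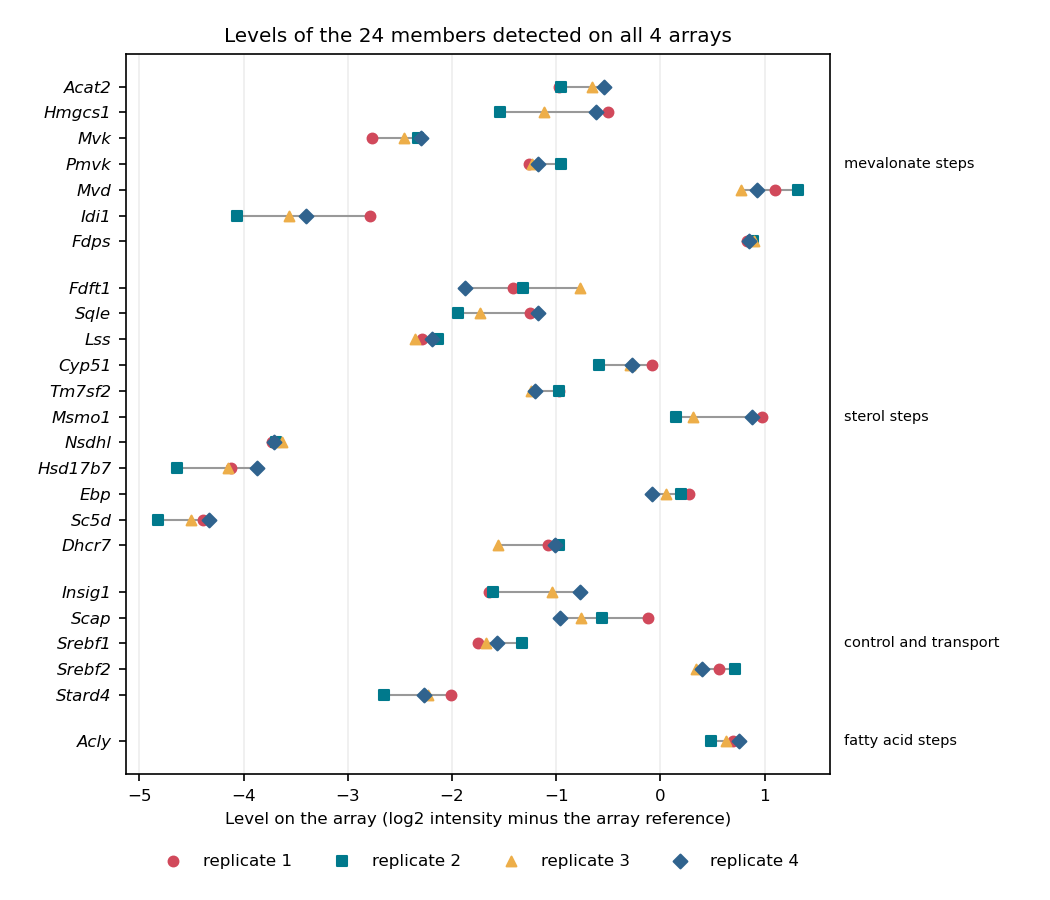
Level of each of the 24 members detected on all 4 arrays (x axis, log2 intensity minus the array reference; 1 point per array, grey line from lowest to highest), in pathway order. Hmgcs1, Idi1 and Fdft1 span more than 1 on the log2 scale, while the points of Fdps and Nsdhl nearly coincide.

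Of the SREBP control and transport genes, Insig2 was the one not detected on all 4 arrays. Srebf2, which encodes SREBP-2 and whose promoter is printed above, was at 0.56, 0.72, 0.34 and 0.40 on replicates 1 to 4 (mean 0.50 ± 0.17, n = 4). Srebf1, which encodes the SREBP-1 forms, was at -1.75, -1.32, -1.67 and -1.57 at its brightest probe, lowest on replicate 1 and highest on replicate 2. A second Srebf1 probe ran the other way, from -3.17 on replicate 1 through -3.73 and -3.81 to -3.96 on replicate 4. Insig1, a retention factor for SCAP and itself a target of SREBPs, was at -1.65, -1.61, -1.04 and -0.77 at its brightest probe, lowest on replicate 1. For its second probe the values were -2.21, -3.68, -3.04 and -2.72, so replicate 1 was highest. The probes of Insig1 and of Srebf1 thus disagreed on the order of the arrays, and the orders given are those of 1 probe.

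Scap, the escort of SREBPs, was at -0.12, -0.56, -0.76 and -0.96 on replicates 1 to 4, highest on replicate 1. Stard4, a carrier of cholesterol between membranes, was at -2.01, -2.65, -2.23 and -2.27, lowest on replicate 2, and its second probe was detected on no array. Insig2, the second INSIG gene, had intensities of 23.8, 7.34, 11.4 and 15.5 units, from 1.34 to 4.22 times the 99th percentile of the negative controls, and was called detected on replicate 1 only. Replicate 1 was the array with the highest reference signal, and the part of that signal in this call was not tested.

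Fatty acid members were mostly not detected. Acly, the enzyme that makes acetyl-CoA from citrate and so feeds both pathways, was at 0.69, 0.49, 0.63 and 0.76 on replicates 1 to 4 (mean 0.64 ± 0.11, n = 4). Acaca, the acetyl-CoA carboxylase, had intensities of 17.6, 5.65, 3.27 and 12.0 units at its brightest probe and was called detected on replicate 1 only. For the negative controls that percentile stood at 5.62, 5.48, 5.07 and 5.96 units on replicates 1 to 4, so this Acaca probe lay below it on replicate 3, where the second Acaca probe lay above it.

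Fasn, the fatty acid synthase, had intensities of 3.83, 4.83, 4.16 and 4.89 units and lay below that percentile on every array. Scd, a stearoyl-CoA desaturase, at 3.51, 3.43, 3.58 and 3.80 units, and Fads1, the delta-5 desaturase, at 3.23, 3.34, 3.41 and 3.62 units, were below it on all 4 arrays as well. Elovl6, an elongase of long-chain fatty acids, was above it on replicates 1 and 3, at 13.4 and 5.72 units, and below it on replicates 2 and 4, at 3.79 and 3.97. Fads2, the delta-6 desaturase, was above it on replicate 2 only, at 10.6 units, and at 4.93, 4.08 and 4.02 on replicates 1, 3 and 4. Fasn, Scd, Fads1 and Fads2 were each read by a single probe, and a gene given as not detected may still be expressed. Scaled levels of these 5 genes are not given, because none was well above background on any array.

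**Figure D4:**
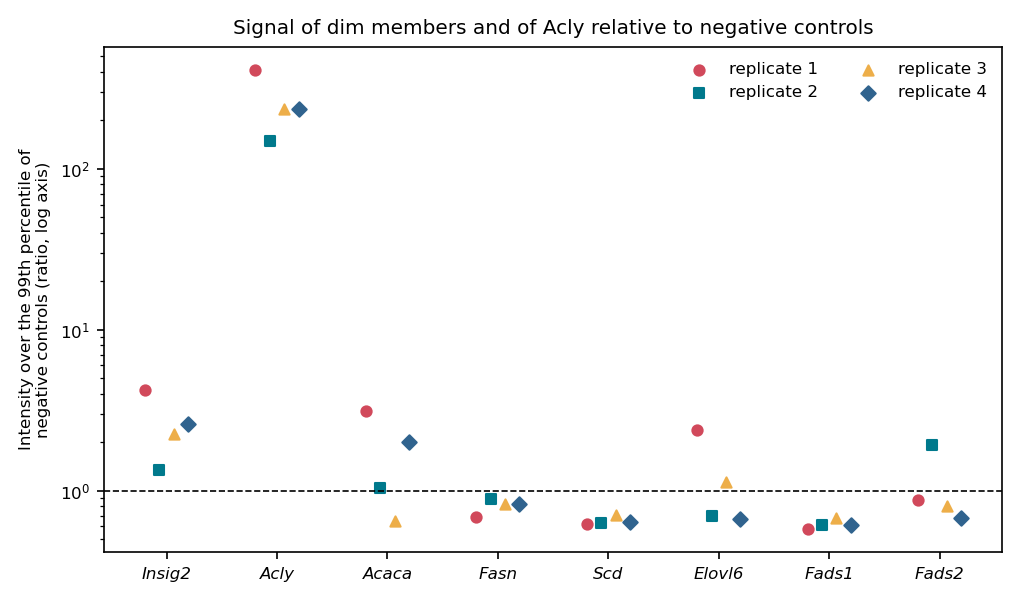
Processed intensity over the 99th percentile of the array's negative controls (y axis, ratio on a log scale; 1 point per array) for Insig2 and the 7 fatty acid members. The dashed line is a ratio of 1; Acly lies at 150 to 412, while Fasn, Scd and Fads1 lie below the line on all 4 arrays.

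The spread of the detected members was close to that of other genes. Their median SD was 0.219 on the log2 scale, against 0.225 over the 5830 named genes detected on all 4 arrays. Of the 24, the genes Hmgcs1, Idi1 and Fdft1 differed at least 2-fold between their highest and lowest arrays, against 9.07% of all detected genes. Without replicate 1 or without replicate 2 this was 1 gene, Fdft1, against 2.28% and 5.46% of all detected genes. The difference of Idi1 was then 0.67 and 0.78 on the log2 scale. That of Hmgcs1 was 0.93 without replicate 1, close to its 1.04 on all 4 arrays, and 0.63 without replicate 2. Without replicate 3 or without replicate 4 the genes past 2-fold were Hmgcs1 and Idi1, against 7.87% and 7.65%. Fdft1 was then at 0.54 and 0.64 on the log2 scale, so its difference rests on those arrays. With the 75th percentile over all probes the genes past 2-fold were Idi1, Fdft1 and Insig1, against 8.94% of all detected genes. After normexp background correction the difference of Idi1 was 0.25 on the log2 scale in place of 1.27, with replicate 3 lowest, and that of Hmgcs1 was 0.73. That correction adds an offset of 50 units to each spot, which narrows log2 differences at dim probes. The Idi1 probe had processed intensities of 207, 35.0, 65.0 and 78.8 units on replicates 1 to 4, so its narrower difference is partly built in. In the same setting the difference of Insig1 at its brightest probe was 1.19 in place of 0.88. Fdft1 and Insig1 were thus the genes past 2-fold, against 4.85% of all detected genes. Hmgcs1 was also below 2-fold when scaled to the median of detected probes, at 0.91, and under quantile normalization, at 0.94. Idi1 and Fdft1 were the genes past 2-fold there, against 8.73% and 8.23% of all detected genes.

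As a list the members had no array in common on which they were high. Of the 24, 7 were highest on replicate 1, against 37.8% of all detected genes, 7 on replicate 2, against 27.9%, 3 on replicate 3, against 19.2%, and 7 on replicate 4, against 15.1%. Their lowest array was replicate 1 for 7 genes, against 25.0% of all detected genes, replicate 2 for 9, against 32.2%, replicate 3 for 5, against 22.2%, and replicate 4 for 3, against 20.6%. The median deviation of the 24 from their own means was 0.07, 0.01, -0.07 and 0.04 on replicates 1 to 4, and that of all detected genes 0.06, -0.01, -0.01 and -0.01. On replicate 1 the members' value turned to -0.026 with the 75th percentile over all probes and to -0.0039 with the median of detected probes, and that of all detected genes to -0.044 and -0.022. The counts per array moved with the scaling: with the 75th percentile taken over all probes, 4 members were highest on replicate 1 and 11 on replicate 2, against 23.8% and 40.3% of all detected genes, which moved the same way. On replicate 4 the count was 5 to 8 under the other scalings and corrections, against 16% to 20.9% of all detected genes. Insig1 and Srebf1 enter all these counts by their brightest probe, whose order their second probe did not share. For Lss and Cyp51 the second probe shared the lowest array of the brightest probe but not its highest array.

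Hmgcs1, Idi1, Cyp51 and Msmo1 went down from array to array in the order replicate 1, 4, 3, 2, which is also the order of the arrays' reference signal. This order was chosen after the values were seen, and 10.3% of all detected genes followed it. The part of the array signal in these 4 genes was not tested. Idi1 and Hmgcs1 left this order after normexp correction, while Cyp51 and Msmo1 kept it and Tm7sf2 entered, against 4.44% of all detected genes. With the 75th percentile taken over all probes, Hmgcs1 and Msmo1 left it and Stard4 entered, against 6%. Acly entered under quantile normalization, against 7.89%, and Cyp51 left with the mean over probes, against 8.95%.

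Some members were printed at several spots, which allows arrays to be set against the error between spots. This was done with limma's moderated F over the whole set of 1594 detected probes with repeated spots (2 or more), with Benjamini-Hochberg adjustment over that set. The spots of 1 array share 1 culture's RNA, so the test compares arrays, with culture, extraction, labelling and hybridisation together, and says nothing about the particles. Of 8 members tested, none passed adjusted p under 0.05 with a difference of at least 2-fold, against 4.48% of 871 genes. Without the fold minimum 7 passed (7 also at unadjusted p under 0.05), against 84.8% of the genes, so a pass without the minimum is common on these arrays.

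Msmo1 had the lowest adjusted p of the members tested. Its spots, 10 on each array less 1 outlier on replicate 4, ran from 0.80 to 1.12 on replicate 1 and from 0.798 to 0.996 on replicate 4, but from 0.034 to 0.35 on replicate 2 and from 0.18 to 0.43 on replicate 3, with no overlap between these pairs of arrays (1.77-fold, limma adjusted p = 9.49e-22). Sqle differed by 1.70-fold (limma adjusted p = 6.96e-14), again with its spots on replicates 1 and 4, from -1.33 to -1.01, above those on replicates 2 and 3, from -2.32 to -1.64. Of its 10 spots, 7 were used on replicate 1 and 8 on replicate 3, the rest being outliers. Cyp51 differed by 1.42-fold, Acat2 by 1.35-fold at its probe of 10 spots, Mvd by 1.45-fold, Ebp by 1.28-fold and Acly by 1.20-fold, with limma adjusted p from 1.52e-12 for Cyp51 to 0.00515 for Mvd. Fdps did not pass (1.04-fold, limma adjusted p = 0.634). Hmgcs1, Idi1 and Fdft1, with the widest differences, had probes at single spots and could not enter this test.

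**Figure D5:**
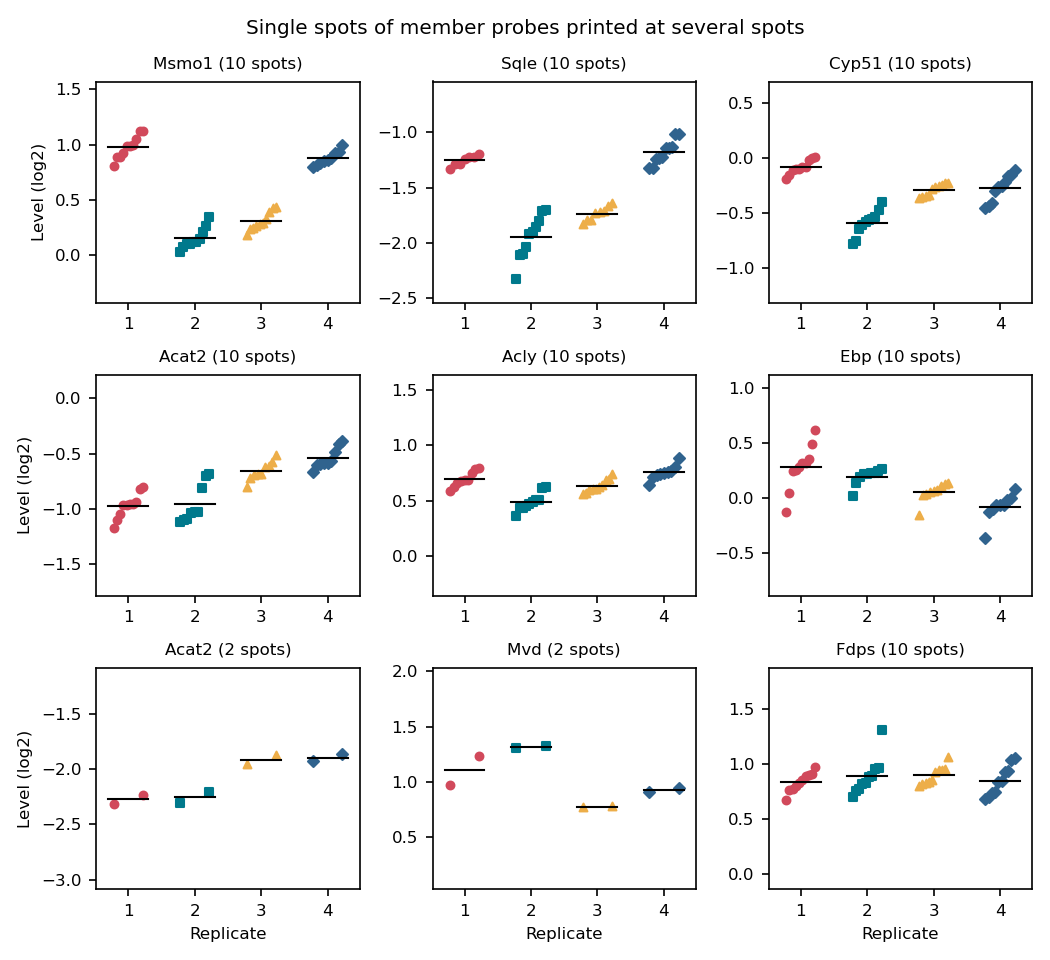
Single spots (points) and their mean (line) for the 9 member probes printed at 2 or 10 spots, by replicate (x axis) and level (y axis, log2 intensity minus the array reference; each panel spans 2 units). Outlier spots are left out. The spots of Msmo1 and Sqle on replicates 1 and 4 lie above those on replicates 2 and 3, while the spots of Fdps overlap on all 4 arrays.

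Related genes outside the list were read in the same way. Of 14 genes of sterol export, uptake and storage, 10 were detected on every array and 4 on fewer. Among them were the oxysterol receptor genes Nr1h2, at 0.18, 0.66, 0.06 and -0.03 on replicates 1 to 4, and Nr1h3, which encodes LXR alpha, at 2.03, 2.42, 2.43 and 2.31, and the sterol exporter gene Abcg1, at 3.53, 3.61, 3.28 and 3.18. Of 10 measured genes of SREBP cleavage, INSIG turnover and promoter partners, 4 were detected on every array, 4 on some arrays and 2 on no array. Mbtps1, the site-1 protease that makes the first cut in SREBPs, was at -1.61, -1.40, -1.57 and -1.57, Erlin1 at -2.29, -2.95, -2.41 and -2.30, and Pgrmc1 at -4.21, -3.25, -3.08 and -3.50. Mbtps2, the site-2 protease, and the NF-Y subunit gene Nfyb were detected on no array.

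Of 10 measured genes of the isoprenoid branch, which uses farnesyl diphosphate for other products, 8 were detected on every array, 1 on some arrays and Pggt1b, a geranylgeranyl transferase subunit, on none. Dhdds, which makes the dolichol chain, was at 0.42, 0.32, 0.45 and 0.72, its partner Nus1 at -4.53, -4.67, -5.42 and -4.81, and Pdss2, of coenzyme Q synthesis, at -4.93, -5.05, -4.93 and -5.08. Of 15 further genes of fatty acids and glycerolipids, 7 were detected on every array, 2 on some arrays and 6 on no array. Acss2, which makes acetyl-CoA from acetate, was at -3.29, -3.94, -3.93 and -3.92, the malic enzyme gene Me1 at -0.60, -0.85, -0.61 and -0.63, and the citrate carrier gene Slc25a1 at -1.80, -1.83, -2.07 and -1.85. Acacb, the second acetyl-CoA carboxylase, and the elongase gene Elovl5 were detected on no array. Detection on all 4 arrays was thus 71.4% in the sterol export list, 40.0% in the SREBP processing list, 80.0% in the isoprenoid list and 46.7% in the fatty acid and glycerolipid list, against 35.2% of all named genes.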

How the data were processed

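Total RNA of 4 exposed cultures was read on 1-colour Agilent arrays. The deposited files hold spot intensity from Agilent Feature Extraction 11.0.1.1 on array design 074036, per the file headers. The authors' software subtracted background and detrended each array, and the deposited intensity was not normalized between arrays. Other deposited columns hold median intensity for spots and for the background around them, and detection flags.

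Control spots and outlier spots (486 to 723 gene spots per array) were left out of the intensity values, with 1 exception. Where every spot of a probe on an array was an outlier, as can occur at a probe of 1 spot, its spots were kept for its level. The limma test left out all outlier spots in its main setting. No gene spot was saturated. Log2 values of repeated spots were averaged. The 75th percentile was taken over probes detected on all 4 arrays (22.9% of 45598), because under 50% were. Probe accessions, without version, were named through RefSeq genes of GRCr8, and 21109 probes (46.3%) matched. Detection of a probe needed the flag on more than 50% of its spots, and detection of a gene needed 1 such probe. Genes took the level of their brightest probe. Of the 31 members, 10 had several probes. Fit and adjustment used limma 3.58.1 in R 4.3.3 on all 1594 eligible probes; on simulated data for this comparison of 4 arrays, without a fold minimum, it called all 100 probes changed by 1 and all 100 changed by 2 (log2), and 1.08% of 1394 unchanged. The number of arrays, 4, limits the precision.

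Members and lists were chosen with earlier results of these data known. All members are named; of each related list, the first 3 genes detected on all arrays and the first 2 detected on none, in the order written. Pdss1 was listed but not matched to a probe. Alternatives were other scalings, quantile normalization, normexp with an offset of 50 (on the median spot signal, as the files used here have no mean signal), other detection rules, the mean over probes, and each replicate left out.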

Additional observations from a re-analysis of the deposited data

How the results depend on the processing

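The count of 24 detected members was 20 to 26 under other detection rules and 24 without each replicate in turn. The median SD of detected members was 0.196 to 0.254 under the other scalings, corrections and probe rules, 0.265 without the filter on dim probes, and 0.165 to 0.255 with a replicate left out. The count of members that differed at least 2-fold was 3 in the main setting, against 9.07% of all detected genes. It was 2 or 3 under the other scalings, corrections and probe rules, against 4.85% to 9.43%. Without the filter on dim probes it was 8 of 31, where 52.8% of all genes did, and with a replicate left out 1 to 2, against 2.28% to 7.87%. Members highest on replicate 1 numbered 4, on replicate 2 they numbered 11 and on replicate 3 they numbered 1 with the 75th percentile over all probes, against 23.8%, 40.3% and 14.9% of all detected genes; the count on replicate 3 was also 1 under quantile normalization and after normexp, against 17.3% and 18.4%. The median deviations per array moved by less than the SD over members under every scaling run, but on replicate 1 the sign turned under 2 of them, as it did for all detected genes. The count of members past limma's test with a fold minimum was 0 of 8, against 4.48% of all genes tested. Without the minimum it was 7, against 84.8%. It stayed 0 under the other scalings and corrections, against 2.3% to 4.71%, and with each replicate left out, against 1.15% to 4.25%. Without the filter on dim probes it was also 0, against 28%. Only 8 members were tested in every setting, so a count of 0 says little about the list. For the SD of single members, 6 of 24 moved over 1.5 times after normexp and 7 of 24 without replicate 2. Low signal limits the 6 fatty acid members other than Acly. No paired analysis was possible because there is 1 group. The cause of these shifts was not tested.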
